A study of Mus musculus with 12 samples.

Results

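The 10 genes followed here are NRF2 antioxidant genes, chosen by name: Nqo1, Gclc, Gclm, Hmox1, Txnrd1, Srxn1, Slc7a11, Gsta4, Gstm1 and G6pdx. Each has 1 row in the raw count table of 25210 genes, and all 10 are among the 15316 genes that passed the filter on low counts. They were measured by RNA sequencing in mammary epithelial organoids of virgin female FVB/N mice aged 8 to 11 weeks, a wild-type inbred strain, grown in growth-factor reduced Matrigel and minimal medium. For 7 days the organoids received the vehicle dimethyl sulfoxide (DMSO) or the GSK3 inhibitor CHIR99021 at 1, 1.5 or 3 µM, to activate WNT/CTNNB1 signalling. There were 3 cultures from 3 animals, and each culture received all 4 treatments, which gives 12 libraries.

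NRF2, the product of Nfe2l2, is a transcription factor that cells use against oxidants and reactive chemicals. In resting cells KEAP1 and CUL3 mark it for degradation, and when KEAP1 is modified NRF2 accumulates, pairs with a small MAF protein and binds antioxidant response elements near its target genes. GSK3, the kinase that CHIR99021 blocks, can also mark NRF2 for degradation, through the adaptor β-TrCP. The targets make and use glutathione, reduce thioredoxin and peroxiredoxins, supply NADPH and detoxify quinones and haem.

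Library totals ran from 10.1 to 24.5 M counts (M, mega), and the 10 genes had between 354 and 8033 counts in every library, so counting error is small beside the spread between cultures. Levels are given as CPM, counts per M counts of a TMM-scaled library. A gene is called where its adjusted p is under 0.05 in edgeR's quasi-likelihood test with Benjamini-Hochberg adjustment over all genes tested. Axin2, a feedback target of WNT signalling that checks the dose labels, stood at 2.75 ± 0.491 CPM with vehicle and, in order of dose, at 10.9 ± 7.51, 28.6 ± 17.9 and 83.9 ± 42.3 CPM (SD, n = 3). The cultures held other cells beside epithelium, whose summed markers moved with dose. Adipocyte markers (5 genes) summed to 3375 to 8990 CPM in DMSO and 36.2 to 237 CPM at 3 µM, fibroblast markers (8) to 4022 to 24150.2 and 219 to 5283 CPM, macrophage markers (9) to 286 to 2937 and 41.2 to 130.0 CPM. Called lower at 3 µM were 5 of the 5 adipocyte, 2 of the 8 fibroblast and 7 of the 9 macrophage genes. Of all genes tested 27.7% were called lower there, so the fibroblast count is near that share. With the replicate as a block the counts were 5, 7 and 9, where 34.8% of all genes were called lower. Squamous markers, all 10 called higher against 29.9% of all genes, went from 28.7 to 65.3 CPM to 6613 to 28071 CPM. The 6 luminal or pan-epithelial markers summed to 2752 to 4553 and 2436 to 2902 CPM. Of these, 1 was called higher and 3 lower, and the list spanned −2.11 to 1.92 on the log2 scale. The 7 basal or myoepithelial markers summed to 2075 to 3312 and 14459 to 31316 CPM. Of these, 3 were called higher (Krt5, Krt14 and Trp63) and 4 lower (Acta2, Myh11, Oxtr and Mylk). In bulk RNA, fewer cells of a type and less RNA per cell cannot be told apart.

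**Figure D1:**
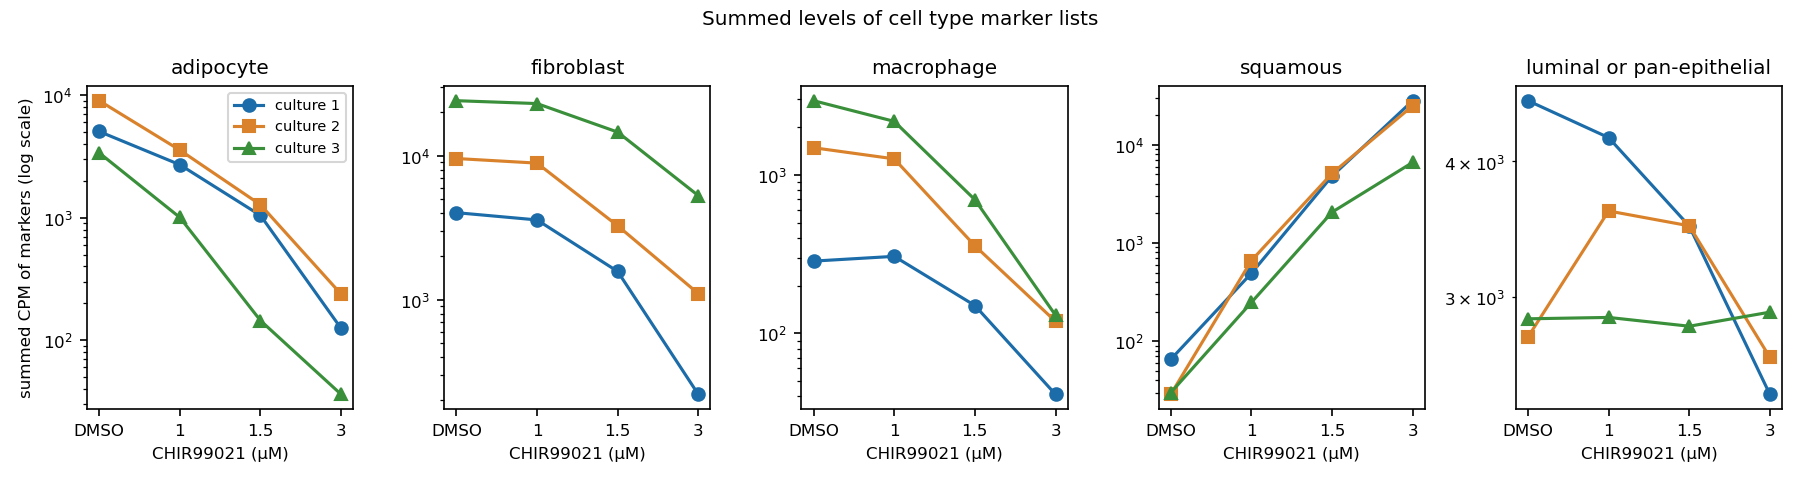
Summed CPM (log scale) of 5 lists of cell type markers against CHIR99021 dose, with 1 line per culture. Adipocyte, fibroblast and macrophage sums are lower at 3 µM than in DMSO in all 3 cultures, squamous sums are higher, and culture 3 has the highest fibroblast sum at every dose.

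Promoter windows were searched for the core of the antioxidant response element, because they show where NRF2 could bind near these genes. RefSeq windows (GRCm38.p6) from 250 bases before to 50 after each transcription start were found for 7 of the 10 genes, in 10 windows, but not for Gclc, Hmox1 and Gsta4. The core TGACNNNGC or its reverse complement GCNNNGTCA occurred in 4 of these windows, those of Gclm, G6pdx, Srxn1 and 1 of the 3 starts of Txnrd1. Of all 32851 windows in the table, 12.4% held it, so a match is common and is a description, not a binding site. Bases outside these windows were not searched, so a window without a match does not show that a gene lacks the element. The upstream stretches below are printed 5′ to 3′ on the gene's strand, with the match in capitals. In all 4 the match is the reverse complement.
Gclm, chr3:122245307-122245556, plus strand, match starting 134 bases before the start: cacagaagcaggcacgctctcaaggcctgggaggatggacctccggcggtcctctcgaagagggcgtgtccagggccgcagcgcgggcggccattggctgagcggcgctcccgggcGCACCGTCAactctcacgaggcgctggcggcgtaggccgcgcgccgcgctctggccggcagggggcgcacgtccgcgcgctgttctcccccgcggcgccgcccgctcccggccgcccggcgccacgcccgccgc
Txnrd1, chr10:82858956-82859205, plus strand, match starting 92 bases before the start: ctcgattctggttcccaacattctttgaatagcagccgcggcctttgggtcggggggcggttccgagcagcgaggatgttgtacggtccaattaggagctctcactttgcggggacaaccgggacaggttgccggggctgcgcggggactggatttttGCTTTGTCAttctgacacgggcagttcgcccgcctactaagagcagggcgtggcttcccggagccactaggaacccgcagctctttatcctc
G6pdx, chrX:74428881-74429130, minus strand, match starting 57 bases before the start: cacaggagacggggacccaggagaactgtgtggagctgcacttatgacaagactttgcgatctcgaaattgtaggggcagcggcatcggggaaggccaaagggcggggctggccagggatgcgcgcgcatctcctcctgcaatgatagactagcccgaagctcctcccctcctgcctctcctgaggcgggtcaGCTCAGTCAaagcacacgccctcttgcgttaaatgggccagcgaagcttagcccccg
Srxn1, chr2:152105542-152105570, plus strand, only the 29 bases around a match that begins at base 29 after the start: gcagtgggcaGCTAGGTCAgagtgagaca

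At 1 µM the fitted change against DMSO was below 0 for all 10, with a median log2 fold change of −0.40, where 50.7% of all genes tested were below 0. At 1.5 µM it was again below 0 for all 10, with a median of −0.92, where 50.2% of all genes were below 0. At 3 µM it was below 0 for 7 of 10 (median −0.20, all genes 51.4%). From 1.5 to 3 µM it was above 0 for 9 of 10, with a median of 0.53, where 50.2% of all genes were below 0. Against DMSO at 3 µM, in the fit without the replicate as a block, Gsta4 rose, Gstm1 and Hmox1 fell, and the other 7 were not called. With the block, which takes up the pairing by animal, Gclm and G6pdx were also called lower (adjusted p = 0.00461 and 0.0372). With library size as the only scaling, the median of all genes was −0.23 at 3 µM against DMSO, where TMM gave −0.03, and −0.28 from 1.5 to 3 µM, where TMM gave −0.0028, and the fitted step from 1.5 to 3 µM was then below 0 for Gclm, Nqo1 and Txnrd1 as well.

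At 1 µM 0 of the 10 genes were called, where 0.242% of all genes were called, 0.189% higher and 0.0522% lower, and 1 of the 10 had an unadjusted p under 0.05. At 1.5 µM 2 of 10 were called, both lower, against a background of 27.3%, with 15.4% higher and 11.8% lower. At 3 µM 3 of 10 were called, 1 higher and 2 lower, against 57.5%, with 29.9% higher and 27.7% lower. From 1 to 1.5 µM 1 of 10 was called, lower, against 5.43%, with 4.43% higher and 0.992% lower. From 1.5 to 3 µM 3 of 10 were called, all higher, against 29.7%, with 17% higher and 12.7% lower. The libraries of the 2 groups did not overlap for 1, 5 and 4 of the 10 at 1, 1.5 and 3 µM against DMSO. Over all genes the shares were 19.4%, 45.6% and 60.8%. From 1 to 1.5 µM 1 of 10 did not overlap, against 31.2%, and from 1.5 to 3 µM 4 of 10, against 42.8%.

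Each culture came from 1 animal, so the libraries are paired, and the replicate number as a block changed these counts. At 1 µM 3 of 10 were then called, all lower (Hmox1, Srxn1 and G6pdx), against 5.61% of all genes, with 2.55% higher and 3.06% lower. At 1.5 µM 6 of 10 were called, all lower, against 46.7%, with 22.3% higher and 24.3% lower. At 3 µM 5 of 10 were called, 1 higher and 4 lower, against 68.9%, with 34.1% higher and 34.8% lower. From 1 to 1.5 µM 3 of 10 were called, all lower, against 21.9%, with 11.3% higher and 10.5% lower. From 1.5 to 3 µM 6 of 10 were called, 5 higher and 1 lower, against 46.7%, with 24.7% higher and 22% lower. Single libraries also moved the unblocked counts: at 1.5 µM 1 gene was called without DMSO replicate 2 and 6 without DMSO replicate 3, and from 1 to 1.5 µM 0 were called without replicate 2 at 1 µM or replicate 1 at 1.5 µM. Over the 15 fits that left out 1 library or 1 culture, all genes called also varied. They ranged from 457 to 5085 at 1.5 µM and from 0 to 1508 from 1 to 1.5 µM.

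**Figure D2:**
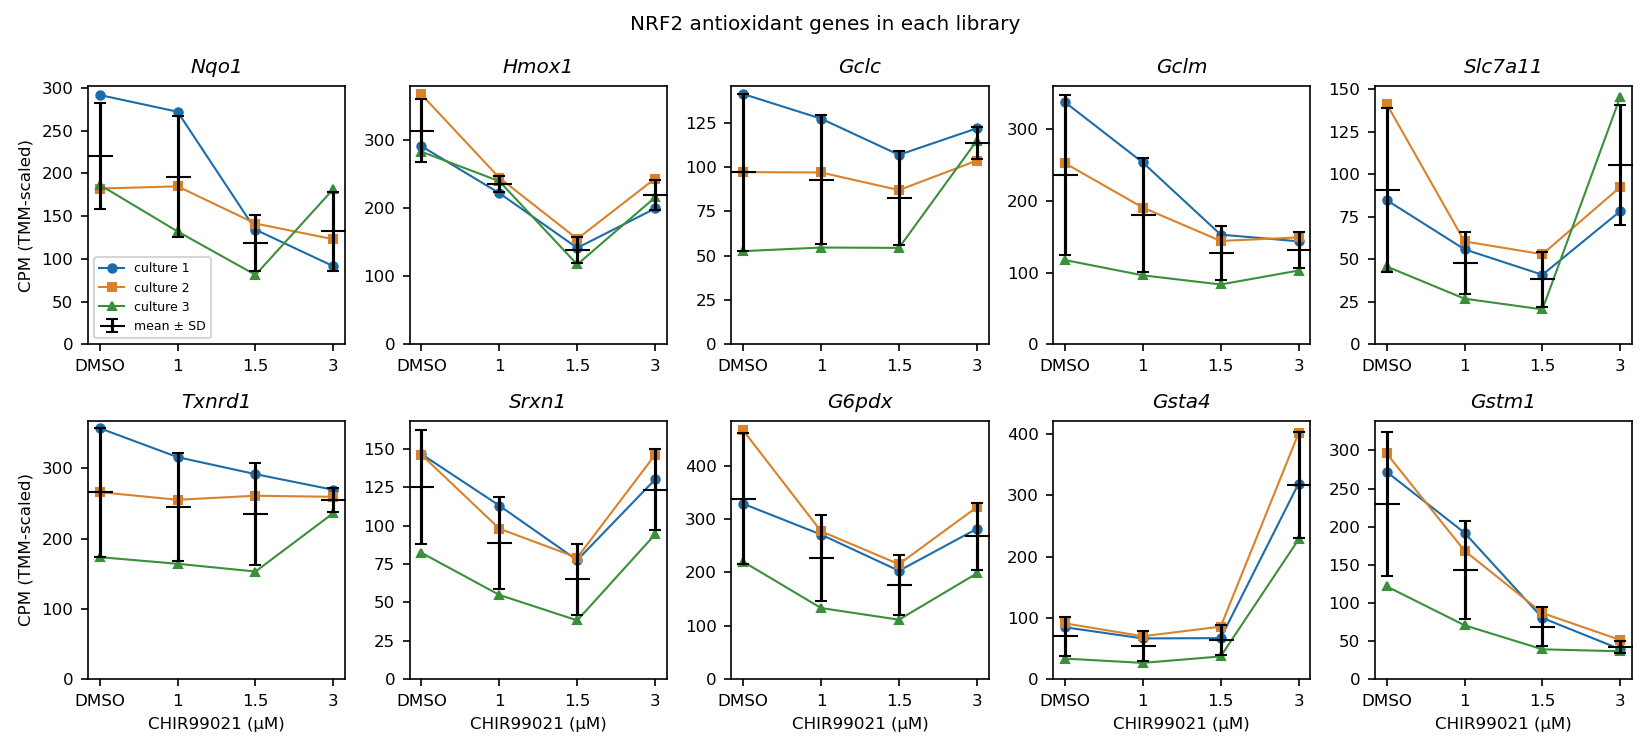
CPM of each gene (y axes start at 0) in DMSO and at 1, 1.5 and 3 µM CHIR99021, with 1 coloured line per culture and black bars for mean ± SD of 3 libraries. Hmox1, Srxn1, G6pdx and Slc7a11 are lowest at 1.5 µM in every culture, Gsta4 is highest at 3 µM, and Gstm1 is lower at each higher dose.

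Hmox1, which encodes the inducible haem oxygenase that splits haem to biliverdin, iron and carbon monoxide (ENSMUSG00000005413, GRCm38 chr8:75093591-75100596), was called in 4 of the 5 comparisons. It was at 291, 368 and 283 CPM in the DMSO libraries of cultures 1, 2 and 3, at 222, 245 and 239.9 CPM at 1 µM, at 142, 155 and 117 CPM at 1.5 µM, and at 199.8, 244 and 216 CPM at 3 µM. The 1.5 µM libraries lay below those of every other dose, and the 3 µM libraries lay between those of 1.5 µM and DMSO. Its log2 fold change against DMSO was −1.19 ± 0.134 at 1.5 µM (SE, adjusted p = 0.000426) and −0.51 ± 0.132 at 3 µM (adjusted p = 0.00741). At 1 µM it was −0.41 ± 0.132 (adjusted p = 0.255, with the replicate block 0.0380). Hmox1 fell from 1 to 1.5 µM (log2 fold change −0.77, adjusted p = 0.0127) and rose from 1.5 to 3 µM (0.67, adjusted p = 0.00492). The fall from 1 to 1.5 µM was not called without replicate 2 at 1 µM (adjusted p = 0.0624) or replicate 1 at 1.5 µM (0.0561), nor without culture 1 (0.190) or culture 2 (0.291). The 4 called changes kept their direction when any 1 culture was left out. The change at 3 µM against DMSO was then not called without replicate 1 (adjusted p = 0.0761), and that from 1.5 to 3 µM was not called without replicate 1 (0.0626) or replicate 2 (0.0547). Macrophages express Hmox1. The summed macrophage markers were at 286 to 2937 CPM in DMSO and 306 to 2174 CPM at 1 µM. At 1.5 µM they were at 149.8 to 697 CPM, and at 3 µM at 41.2 to 130.0 CPM. The part of these cells in the Hmox1 level was not tested.

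Nqo1 (ENSMUSG00000003849, chr8:107388225-107403206), a quinone reductase often used as a reporter of NRF2 activity, was uneven between cultures. It stood at 292, 182 and 187 CPM with vehicle, 272, 185 and 132 CPM at 1 µM, 134, 141 and 81.2 CPM at 1.5 µM, and 91.3, 123 and 182 CPM at 3 µM. The 1.5 and 3 µM libraries all lay below those of DMSO. At 3 µM the margin was small, with 181.6 CPM in culture 3 against 182.2 CPM in the lowest DMSO library, that of culture 2. In culture 3 the 3 µM library was only slightly lower than its own DMSO library. Its log2 fold changes were −0.89 ± 0.343 at 1.5 µM (adjusted p = 0.0792, with the block 0.0597, in DESeq2 0.0353) and −0.74 ± 0.342 at 3 µM (adjusted p = 0.0878). Without replicate 3 at 3 µM the latter was −1.06 (adjusted p = 0.0317).

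Glutathione is made in 2 steps, the first by glutamate-cysteine ligase, of which Gclc is the catalytic and Gclm the modifier subunit, from cystine that the exchanger subunit Slc7a11 brings in. Gclm (ENSMUSG00000028124, chr3:122245557-122269984) was at 338, 252 and 117 CPM in DMSO, 253, 191 and 96.1 CPM at 1 µM, 153, 144 and 83.3 CPM at 1.5 µM and 143, 149 and 103 CPM at 3 µM. Every treated library was below the DMSO library of its own culture, although the groups overlapped. Its log2 fold change was −0.90 ± 0.427 at 1.5 µM (adjusted p = 0.145) and −0.84 ± 0.427 at 3 µM (adjusted p = 0.115), and both were called with the block (adjusted p = 0.00425 and 0.00461). Gm17494, with 424 counts in all libraries together, overlaps exons of Gclm on the opposite strand. Without DMSO replicate 3 both changes were called (adjusted p = 0.0461 and 0.0276).

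Gclc (ENSMUSG00000032350, chr9:77754535-77794485) was called in none of the 5 comparisons, with or without the block. It stood at 141, 97.1 and 52.5 CPM in DMSO, 127, 96.9 and 54.5 CPM at 1 µM, 107, 86.9 and 54.3 CPM at 1.5 µM and 122, 104 and 115 CPM at 3 µM. Culture 3 was lowest in DMSO and at 1 and 1.5 µM, and at 3 µM it lay between the other cultures. The log2 fold change at 3 µM against DMSO was 0.23 (95% interval −0.63 to 1.08, adjusted p = 0.634).

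Slc7a11 (ENSMUSG00000027737, chr3:50364936-50443613) rose from 1.5 to 3 µM. Its libraries held 84.8, 141 and 45.8 CPM in DMSO, 55.9, 60.5 and 26.8 CPM at 1 µM, 40.9, 52.9 and 20.5 CPM at 1.5 µM and 78.3, 92.5 and 146 CPM at 3 µM. All 3 µM libraries lay above all 1.5 µM libraries, and culture 3 moved from the lowest level at 1.5 µM to the highest at 3 µM. From 1.5 to 3 µM it rose 2.77-fold (log2 fold change 1.47 ± 0.485, adjusted p = 0.0449). The call held in 3 of the 12 fits that left out 1 library, those without DMSO replicate 2, DMSO replicate 3 or replicate 3 at 1 µM, and in the other 9 the adjusted p reached up to 0.127. These fits were without the block. The call was also lost with library size as the only scaling (0.0831), with no filter (0.108) and with the 2 groups fitted alone (0.0509). Of the 6 other settings 3 kept it, among them the block (log2 fold change 1.65, adjusted p = 0.0123). Of the 3 fits without 1 culture, 1 kept it. The step was 0.94, 0.80 and 2.82 on the log2 scale in cultures 1, 2 and 3. Against DMSO the log2 fold change was −1.25 ± 0.483 at 1.5 µM (adjusted p = 0.0807, with the block 0.0377) and 0.22 ± 0.474 at 3 µM (adjusted p = 0.705).

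Txnrd1 and Srxn1 regenerate reduced thioredoxin and overoxidised peroxiredoxins. Txnrd1 (ENSMUSG00000020250, chr10:82859206-82897724) was at 357, 266 and 173 CPM in DMSO, 316, 255 and 164 CPM at 1 µM, 292, 261 and 153 CPM at 1.5 µM and 269, 259 and 236 CPM at 3 µM, and was called in none of the 5 comparisons with or without the block. Its 95% interval at 3 µM against DMSO ran from −0.76 to 0.64 (log2). Srxn1 (ENSMUSG00000032802, chr2:152105516-152111376) was at 147, 146 and 82.3 CPM in DMSO, 113, 98.0 and 54.8 CPM at 1 µM, 77.5, 79.1 and 38.2 CPM at 1.5 µM and 130.1, 146 and 94.3 CPM at 3 µM. Within each culture it was lowest at 1.5 µM. At 3 µM against DMSO it changed by −0.17, −0.0011 and 0.20 on the log2 scale in cultures 1, 2 and 3. The 95% interval of that log2 fold change, from the fit without the block, ran from −0.80 to 0.77. The log2 fold change at 1.5 µM was −0.94 ± 0.356 (adjusted p = 0.0737, with the block 0.000208, in DESeq2 0.0328), and from 1.5 to 3 µM it was 0.93 ± 0.356 (adjusted p = 0.0746, with the block 0.000224, in DESeq2 0.0359).

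G6pdx (ENSMUSG00000031400, chrX:74409483-74429194) encodes glucose-6-phosphate dehydrogenase, which feeds NADPH to both systems. It had 329, 467 and 220.3 CPM in DMSO, 271, 277 and 133 CPM at 1 µM, 203, 216 and 111 CPM at 1.5 µM and 282, 323 and 198 CPM at 3 µM. As for Srxn1, each culture was lowest at 1.5 µM, with the 1.5 µM libraries below all DMSO libraries. Its log2 fold change at 1.5 µM was −0.94 ± 0.370 (adjusted p = 0.0855, with the block 0.000302, in DESeq2 0.0393). With the block G6pdx was also called lower at 1 and 3 µM against DMSO (adjusted p = 0.0254 and 0.0372) and higher from 1.5 to 3 µM (0.00222). Ikbkg overlaps exons of G6pdx on the opposite strand, and whether counting used the strand is not given in the sources used here.

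The 2 glutathione S-transferases moved in opposite directions at 3 µM. Gsta4 (ENSMUSG00000032348, chr9:78191966-78209348), whose enzyme conjugates the lipid peroxidation product 4-hydroxynonenal, was at 84.6, 91.0 and 33.5 CPM in DMSO, 66.4, 69.9 and 26.4 CPM at 1 µM, 66.8, 85.6 and 37.0 CPM at 1.5 µM and 319, 401 and 228 CPM at 3 µM. Every 3 µM library was above every library of the other doses. The rise was 4.54-fold against DMSO (log2 fold change 2.18 ± 0.486, adjusted p = 0.00341) and the log2 fold change from 1.5 µM was 2.32 (adjusted p = 0.00680), and it was seen in 3 of 3 cultures. Gsta4 was called at 3 µM against DMSO in all 12 fits without 1 library and all 3 without 1 culture, while the step from 1.5 µM was not called without replicate 1 (adjusted p = 0.0933) or replicate 2 (0.109). At 1.5 µM against DMSO Gsta4 had a log2 fold change of −0.14 (95% interval −1.18 to 0.90, adjusted p = 0.849). Squamous markers summed to 28.7 to 65.3 CPM in DMSO, 2058 to 5105 CPM at 1.5 µM and 6613 to 28071 CPM at 3 µM. The part of squamous cells in the level of Gsta4 was not tested.

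Gstm1 (ENSMUSG00000058135, chr3:108012255-108017973), a mu-class transferase with several close paralogs, was at 272, 296 and 122 CPM in DMSO, 192, 168 and 70.6 CPM at 1 µM, 80.2, 86.6 and 39.0 CPM at 1.5 µM and 39.1, 51.3 and 36.5 CPM at 3 µM. It was lower at each higher dose in every culture. With the block the steps from 1 to 1.5 µM and from 1.5 to 3 µM were called too (adjusted p = 0.00958 and 0.0425). The fall was 3.35-fold at 1.5 µM (log2 fold change −1.74 ± 0.449, adjusted p = 0.0173) and 5.43-fold at 3 µM (−2.44 ± 0.461, adjusted p = 0.00133). Without DMSO replicate 2 the fall at 1.5 µM was not called (adjusted p = 0.0623), nor was it without culture 1 (0.121) or culture 2 (0.194). The summed adipocyte markers fell over the same doses, from 3375 to 8990 CPM through 145 to 1273 CPM at 1.5 µM to 36.2 to 237 CPM at 3 µM. Endothelial markers (5 genes) summed to 243 to 503 CPM in DMSO, 38.7 to 187 CPM at 1.5 µM and 27.1 to 86.6 CPM at 3 µM. Fibroblast and macrophage sums were also lower at 3 µM than in DMSO in every culture. The part of any of these cells in the fall of Gstm1 was not tested.

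**Figure D3:**
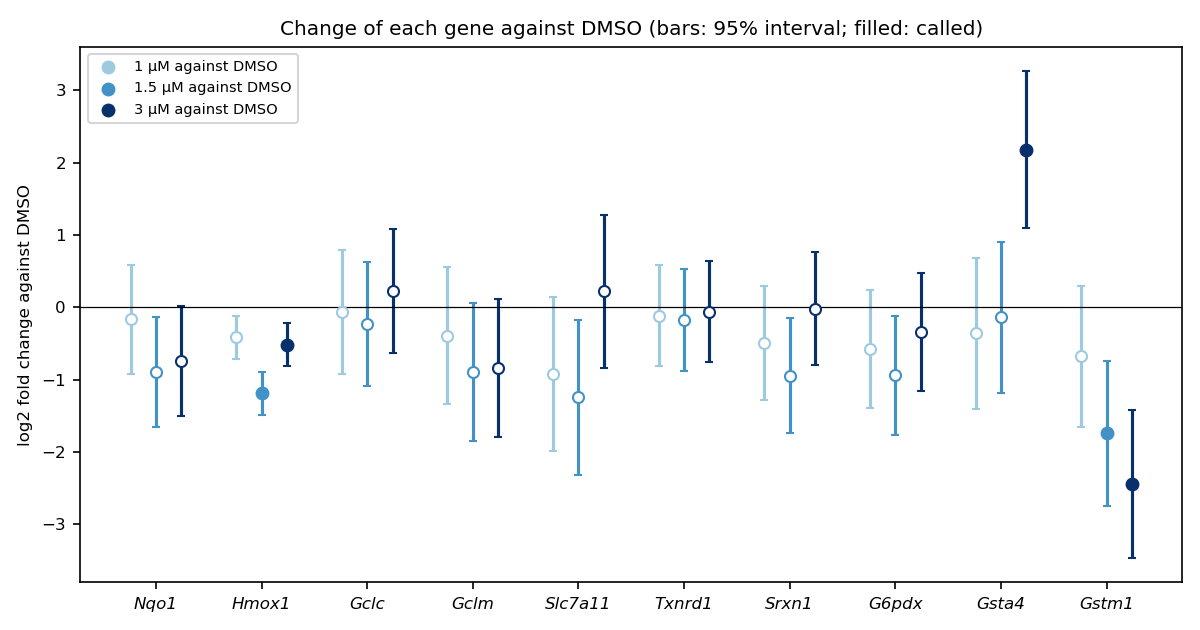
Log2 fold change of each gene against DMSO at 1, 1.5 and 3 µM CHIR99021 (3 libraries per group), with 95% intervals, where filled points are called and open points are not. Values are from the fit without the replicate as a block. Filled points are Hmox1 and Gstm1 at 1.5 and 3 µM and Gsta4 at 3 µM.

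Per kilobase of exon, the level in DMSO was highest for Hmox1 (179 ± 26.5 CPM per kb), Gstm1 (156 ± 64.2), Nqo1 (142 ± 39.9) and G6pdx (110.0 ± 40.1), and lowest for Gclc (25.7 ± 11.8) and Slc7a11 (6.51 ± 3.46), whose annotated exons (13922 bp) are the longest of the 10. Between them came Gsta4, Srxn1, Gclm and Txnrd1, and each neighbour in this order overlapped the next except Gclc and Slc7a11. The annotation behind the exon lengths extends Slc7a11 down to base 49892526, outside the counted gene, which begins at base 50364936. Its 13922 bp may thus include uncounted exons, which leaves its lowest place uncertain. Before division by length, Slc7a11 averaged 90.7 CPM in DMSO, against 96.9 CPM for Gclc and 69.7 CPM for Gsta4. Gsta4 and Txnrd1 also begin earlier in that annotation, so their places are uncertain too. At 3 µM the order changed at the top: Gsta4 led with 249.7 ± 68.4 CPM per kb, apart from Hmox1 with 126 ± 12.7, and Gstm1 was at rank 8, from rank 2 in DMSO, with 28.7 ± 5.35.

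The cultures differed from each other at equal dose. Beside the replicate number the titles tag cultures 1, 2 and 3 as med, min and max at every dose, with no explanation of these tags, so what they mark and the animal cannot be told apart. Culture 3 had the lowest level of 9 of the 10 genes with vehicle and with 1 µM, of all 10 with 1.5 µM and of 6 with 3 µM. Its DMSO level was a median of 0.497 of the mean of cultures 1 and 2, and 0.382 at the lowest, for Gsta4. In the model with dose group and culture, 7 of the 10 differed between cultures (background 28.8%), namely Gclc, Gclm, Txnrd1, Srxn1, Gsta4, Gstm1 and G6pdx, with adjusted p-values from 0.000697 (Srxn1) to 0.0215 (Gclc). Culture 3 was lower than culture 1 in all 7, by 0.75 (G6pdx) to 1.07 (Gclm) on the log2 scale. Nqo1 (adjusted p = 0.594), Slc7a11 (0.238) and Hmox1 (0.0653) were not called. Culture 3 also had the highest fibroblast sum at every dose (24150.2 CPM in DMSO against 4022 and 9570 in cultures 1 and 2) and the lowest squamous sum at 3 µM (6613 CPM against 28071 and 24933), and their part in the difference was not tested.

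For most of the 10 genes the cultures lay closer together at 3 µM than in DMSO. Nqo1 went the other way in ratio, with 182 to 292 CPM in DMSO and 91.3 to 182 CPM at 3 µM. The highest of the 3 libraries exceeded the lowest by a median factor of 2.28 in DMSO and 1.50 at 3 µM over the 10 genes. A test of whether the dose slope differed between cultures, added after the first results, called Gclc (adjusted p = 0.0230) and Gclm (0.0351), where 3.54% of all genes were called. The slope of culture 3 exceeded that of culture 1 by 0.46 log2 units per µM for Gclc and 0.37 for Gclm. In culture 3 alone, Slc7a11 at 3 µM was above its DMSO library, by 1.67 on the log2 scale, while in cultures 1 and 2 it was below by 0.11 and 0.61 (adjusted p of the slope difference 0.0853, not called).

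**Figure D4:**
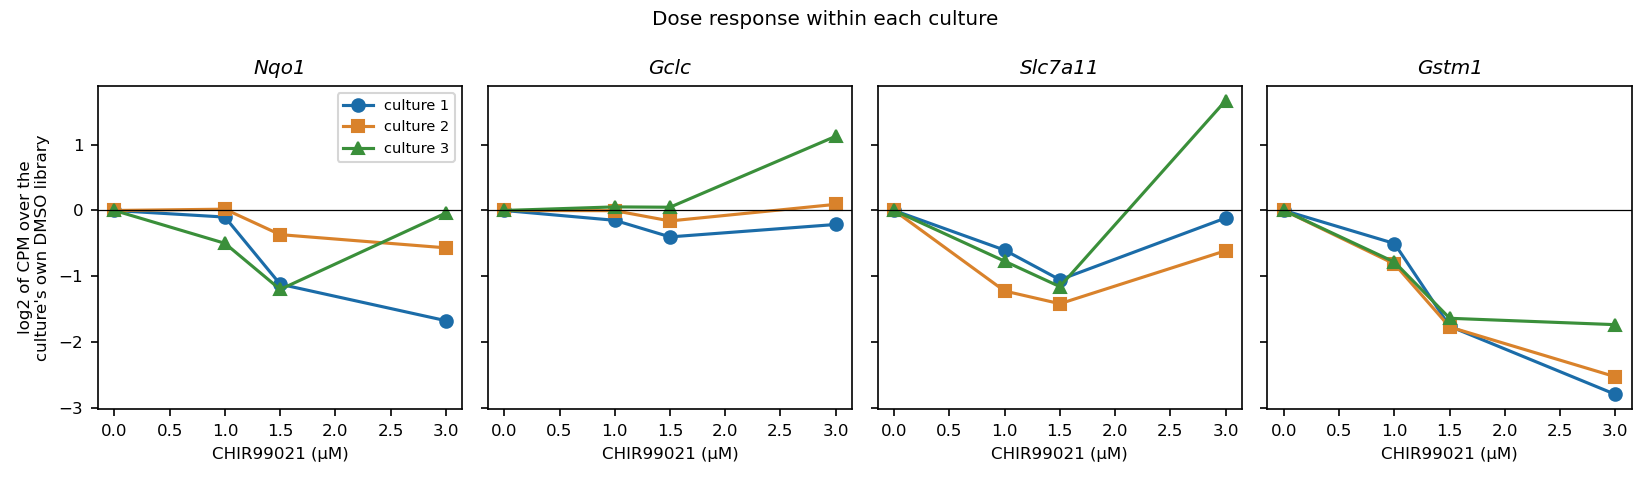
Log2 ratio of CPM to the DMSO library of the same culture, against CHIR99021 dose in µM, for Nqo1, Gclc, Slc7a11 and Gstm1, with 1 line per culture. Culture 3 turns upwards between 1.5 and 3 µM for Nqo1, Gclc and Slc7a11, cultures 1 and 2 also rise over that step for Gclc and Slc7a11 but not for Nqo1, and for Gstm1 all 3 lines run downwards.

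The genes were also compared with each other and with the rest of the table, as a description over 12 libraries that share dose and culture. Within dose groups all 45 pairs of the 10 genes correlated positively (Pearson's r of deviations from the group means 0.15 to 0.98, median 0.76). Across all libraries the highest r was 0.95, between Srxn1 and G6pdx, and the lowest was −0.33, between Gsta4 and Gstm1. Among 12438 other genes averaging at least 50 counts, the courses closest to that of Gstm1 were those of Acadm, which oxidises fatty acids, Tmem120a and catalase (Cat), with r of 0.983, 0.983 and 0.979. Closest to Gsta4 were Dctn3, Psmd11 and Eif1, with r of 0.984, 0.984 and 0.981, although these changed by only 0.63, 0.52 and 0.50 on the log2 scale at 3 µM.

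The machinery that controls NRF2 was examined through a list of 15 genes. Of these, 6 rose and 3 fell at 3 µM, where 29.9% of all genes were called higher and 27.7% lower. With the block 8 rose and 3 fell, where 34.1% of all genes were called higher and 34.8% lower. Nfe2l2 itself had 137.9 ± 18.2 CPM with vehicle and, in order of dose, 139.6 ± 15.6, 145 ± 17.4 and 265 ± 15.0 CPM (SD, n = 3). It rose at 3 µM against DMSO (log2 fold change 0.94 ± 0.126, adjusted p = 0.000151) and against 1.5 µM (0.87, adjusted p = 0.00110). Keap1, its inhibitor, was at 44.2 ± 3.24 CPM in DMSO and 41.4 ± 2.15 at 3 µM (log2 fold change −0.09 ± 0.110, adjusted p = 0.485). The small MAF gene Maff and the NRF2 relative Nfe2l3 rose 4.01-fold and by 1.95 on the log2 scale (adjusted p = 0.000409 and 0.000496). Sqstm1, whose product binds KEAP1, fell by 0.97, Btrc, which encodes a β-TrCP, by 0.83, and Nfe2l1 by 0.58 (adjusted p = 0.00436, 0.000199 and 0.0140). Other genes of NRF2 degradation, named after their values were seen, went the other way: Cul3 rose by 0.52 (adjusted p = 0.000843) and Fbxw11, the other β-TrCP gene, by 0.46 (0.00104). Fbxw11 went from 114 ± 8.33 to 157 ± 9.27 CPM and Btrc from 25.4 ± 0.849 to 14.3 ± 2.29 CPM between DMSO and 3 µM. The median of the list was 0.33, against −0.03 for all genes.

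Further antioxidant lists were examined at 3 µM against DMSO, for which all genes had a median log2 fold change of −0.03, with 29.9% called higher and 27.7% lower. With the block, 34.1% of all genes were called higher and 34.8% lower. Of 14 other glutathione synthesis and peroxidase genes, 4 rose and 5 fell (median −0.28, with the block 6 and 6). Glrx, glutaredoxin, rose by 3.84, Ggct, which recycles glutamyl peptides, by 4.31 and the peroxidase Gpx1 by 1.84 on the log2 scale. Ggt1, which breaks down glutathione outside cells, fell by 4.81, Gpx7 by 2.57 and Slc3a2, the partner chain of Slc7a11, by 1.29 (adjusted p = 2.03e-05). Of 11 thioredoxin and peroxiredoxin genes 6 rose and 1 fell (median 0.58, with the block 7 and 2), led by Txnrd3, Txn1 and Prdx5 at 1.51, 1.19 and 1.15, with Txnip, an inhibitor of thioredoxin, lower by 0.63. Of the 4 superoxide dismutase and catalase genes, Sod3 was 4.28-fold lower, Cat and Sod1 fell by 1.58 and 1.43, and Sod2 was not called (log2 fold change 0.21).

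For the lists that follow, also at 3 µM against DMSO, the shares of all genes were 29.9% higher and 27.7% lower. With the block they were 34.1% and 34.8%. Of 20 other glutathione S-transferases tested, 5 rose and 8 fell (median −0.38, with the block 6 and 9). Gsta1, Gsto1 and Gsta2 rose by 4.67, 3.05 and 2.80 on the log2 scale, and Gsta3, Gstt1 and Gstz1 fell by 3.13, 2.48 and 2.40. Gsta and Gstm genes are close paralogs whose shared reads could be split, so values of single genes are uncertain. Of 10 other NADPH enzymes 3 rose (Pgls, Nadk and Rpe, by 0.98, 0.78 and 0.44) and 2 fell (Me1 and Idh1, by 1.52 and 1.43), with a median of −0.04, and with the block 3 rose and 3 fell. Of 8 haem and iron genes 1 rose (Hmox2, by 0.35) and 3 fell (Slc40a1, Fech and Fth1, by 1.07, 0.96 and 0.61), with a median of −0.50, and with the block 1 rose and 4 fell. Of 19 other detoxification and efflux genes tested 4 rose and 8 fell (median −0.26, with the block 5 and 8). Ces2g, Ptgr1 and Akr1b8 rose by 3.34, 2.37 and 1.24, and Abcc3, Ugt1a6a and Aox1 fell by 4.81, 3.40 and 2.84.

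Slc7a11 is also a target of ATF4, the factor of the amino acid stress response. A list of other ATF4 targets, which also holds Atf4 itself, was compared for that reason. Of 14 ATF4 genes 6 rose and 1 fell at 3 µM against DMSO (median 0.47), where 29.9% of all genes were called higher and 27.7% lower. With the block 7 rose and 2 fell, where the shares were 34.1% and 34.8%. From 1.5 to 3 µM 9 rose and 0 fell (median 0.66), where 17% of all genes were called higher and 12.7% lower and their median was −0.0028. With the block 9 rose and 0 fell as well, where the shares were 24.7% and 22%. Slc3a2, the partner chain of Slc7a11, had a log2 fold change of −0.29 over that step (adjusted p = 0.0989), and a part of ATF4 in the level of Slc7a11 was not tested. Shmt2, Psat1 and Phgdh rose by 1.91, 1.70 and 1.34 against DMSO, and Nupr1 fell by 1.05. Of 10 p53 targets, which answer to DNA damage, 5 rose and 1 fell at 3 µM with or without the block (median 0.38). The shares of all genes were 29.9% higher and 27.7% lower without the block, and 34.1% and 34.8% with it. Cdkn1a, Aen and Zmat3 rose by 1.99, 1.57 and 1.39, and Bbc3 fell by 1.06.

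**Figure D5:**
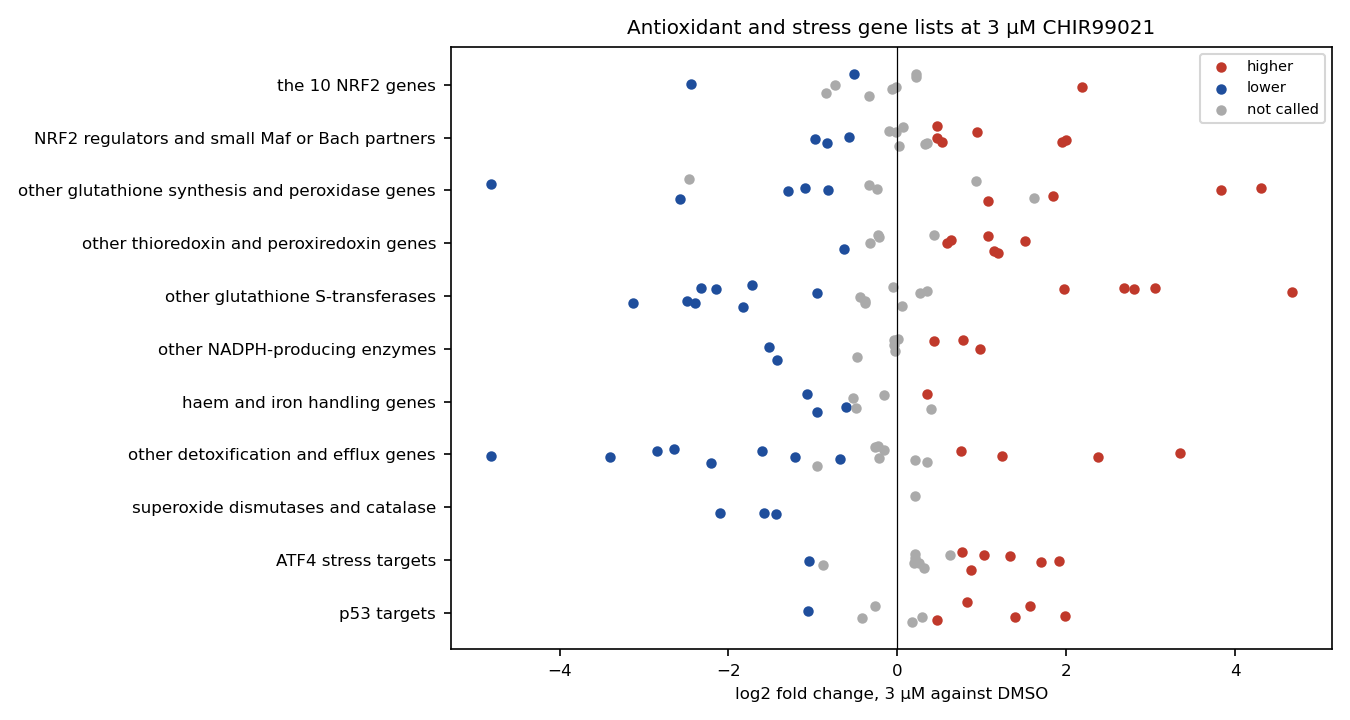
Log2 fold change at 3 µM against DMSO (3 libraries per group) of every tested gene in the 10 NRF2 genes and 10 further lists, with 1 point per gene, red for called higher, blue for called lower and grey for not called. Points are spread vertically at random, and the 10 NRF2 genes span −2.44 to 2.18.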

How the data were processed

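Raw read counts for each Ensembl gene were deposited by the authors, together with log2 values that equal log2 of the count per 10 M plus 1 (0 values differed). The tests used the counts. The submitters' processing notes name TopHat2 2.1, Bowtie 1.1.0, HTSeq and DESeq2, with GRCm38, and the roles, annotation release and strand setting are not given in the sources used here. Libraries were polyA-selected and stranded, per the labels' protocols.

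Genes were kept with filterByExpr, scaled by trimmed means (TMM) and tested two-sided in edgeR 4.0.16 under R 4.3.3 (robust glmQLFit, then glmQLFTest), with group means over all 12 libraries and Benjamini-Hochberg adjustment. Standard errors are the log2 fold change divided by the root of F. Exon lengths are unions from GENCODE release M21 (GRCm38). The replicate numbers are animals, and deviations from group means correlated by 0.177 to 0.840 in all 18 same-number pairs. No replicates were duplicates (chi-square per degree of freedom at least 12.8). Alternatives were the block, DESeq2 1.42.0, other scalings, no filter, only the 2 groups, and each library or culture left out. Genes and lists were chosen with earlier results of these data known, and genes of each list are named by the 3 largest called changes in each direction. Library totals are in the text, and count-based precision covers counting error only.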

Additional observations from a re-analysis of the deposited data

Results flagged for a closer look

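The dose response of both subunits of glutamate-cysteine ligase differed between the cultures, in a test added after the first results were seen. The adjusted p was 0.0230 for Gclc and 0.0351 for Gclm in edgeR's quasi-likelihood test of the culture-by-dose terms. Culture 3 had the lowest level of both genes in DMSO. From DMSO to 3 µM Gclm changed by −1.23, −0.76 and −0.19 on the log2 scale in cultures 1, 2 and 3, and Gclc by −0.21, 0.09 and 1.13, so Gclm fell least and Gclc rose most in culture 3. There is 1 library per culture and dose.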

How the results depend on the processing

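With the replicate block, called NRF2 genes numbered 3, 6 and 5 at 1, 1.5 and 3 µM against DMSO, 3 from 1 to 1.5 µM and 6 from 1.5 to 3 µM. In the same order, all genes called numbered 859, 7147, 10559, 3351 and 7149, against 37, 4177, 8814, 831 and 4544 without the block. The block turned the sign of Txnrd1 (0.016) and Srxn1 (0.014) at 3 µM against DMSO. DESeq2 called 6 NRF2 genes and 5001 of all genes at 1.5 µM. It called 470 of all genes at 1 µM and 1610 from 1 to 1.5 µM. With no filter 494 of all genes were called from 1 to 1.5 µM, and with the 2 groups fitted alone 0 at 1 µM and 2852 from 1.5 to 3 µM. With library size only, log2 fold changes turned sign for Gclc at 1 µM (0.016) and, from 1.5 to 3 µM, for Nqo1 (−0.12), Gclm (−0.23) and Txnrd1 (−0.16). That scaling called 3395 genes higher and 5404 lower at 3 µM, against 4575 and 4239 with TMM, and 1050 and 3860 from 1.5 to 3 µM, against 2601 and 1943.

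Leaving out 1 library or 1 culture, called NRF2 genes ranged from 1 to 6 at 1.5 µM, 2 to 5 at 3 µM, 0 to 2 from 1 to 1.5 µM and 0 to 5 from 1.5 to 3 µM, with 5 at 3 µM and from 1.5 to 3 µM reached without replicate 3. All genes called ranged from 0 to 119 at 1 µM, 457 to 5085 at 1.5 µM, 4769 to 9391 at 3 µM, 0 to 1508 from 1 to 1.5 µM and 345 to 5682 from 1.5 to 3 µM. Log2 fold changes that turned sign in at least 1 such fit had these ranges: at 1 µM against DMSO Gclc (−0.38 to 0.32), Nqo1 (−0.48 to 0.091), Txnrd1 (−0.37 to 0.16); at 1.5 µM against DMSO Gclc (−0.57 to 0.15), Gsta4 (−0.52 to 0.13), Txnrd1 (−0.45 to 0.10); at 3 µM against DMSO Gclc (−0.11 to 0.60), Slc7a11 (−0.41 to 0.78), Srxn1 (−0.28 to 0.12), Txnrd1 (−0.33 to 0.22); from 1 to 1.5 µM Gclc (−0.44 to 0.13), Gsta4 (−0.11 to 0.49), Txnrd1 (−0.28 to 0.17); from 1.5 to 3 µM Gclm (−0.17 to 0.22), Nqo1 (−0.38 to 0.45), Txnrd1 (−0.11 to 0.30). None of these sign changes met the threshold. The cause of the changes above was not tested. Each of the 10 genes had at least 354 counts in every library, and the spread between cultures limits these values more than depth.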
